A study of Mus musculus with 10 samples.

Results

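Acute-phase proteins are plasma proteins whose production by the liver changes during infection and injury, mainly under the cytokines IL-6, IL-1 and TNF acting through STAT3, C/EBP and NF-kB transcription factors. Several are also made by mucosal epithelia, where serum amyloid A carries lipids and retinol, lipocalin 2 withholds iron from bacteria, and hepcidin controls iron export. Medullary thymic epithelial cells (mTECs) display proteins of many peripheral organs to developing T cells, and the transcription factors Aire and Fezf2 are known regulators of that expression.

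The 10 genes described here were the serum amyloids Saa1, Saa2, Saa3 and Saa4, hepcidin (Hamp), lipocalin 2 (Lcn2), haptoglobin (Hp), orosomucoid 1 (Orm1), C-reactive protein (Crp) and serum amyloid P component (Apcs). They were taken by name, as the probe sets whose only gene symbol in the platform annotation was one of these, with the probe set of highest mean signal standing for each gene. This gave 13 probe sets for the 10 genes, of 18194 genes with a probe set of their own on the array. The samples were 5 arrays of Fezf2 KO mTECs, named KO 6 to KO 10 after their titles, and 5 arrays of wild-type mTECs, WT 1 to WT 5. Both groups were thymic cells of C57BL/6-background mice, 3 weeks old, and were sorted without CD45, a leukocyte marker, with EpCAM, an epithelial marker, and for a high level of CD80, a surface marker of maturity in mTECs. The labels name the deleted gene without giving the allele, the deleted part or any Cre driver, and they do not say whether each array came from a separate mouse or pool, so the p-values cover the array-to-array spread alone, part of which may be technical. In sorted bulk samples, fewer cells of a type and less RNA per cell cannot be told apart.

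The values were deposited signals on a linear scale, with array medians from 36.5 to 38.03. Fezf2 itself was 15.04 ± 2.77 in KO cells and 5475 ± 350.0 in WT cells (SD, n = 5 each; exact two-sided permutation test p = 0.00794, the smallest that 5 against 5 arrays allow). Epcam, which was part of the sort, was 7695 ± 261 in KO cells and 7344 ± 232 in WT cells, and Ptprc, the gene of CD45, was between 155 and 278 on KO arrays and between 210.3 and 298 on WT arrays. The floor used here was the 40th percentile of each array, which lay between 21.5 and 22.1. WT 1 and KO 6 stood apart within their groups, with 18S rRNA signals of 3762 on KO 6 against 765 to 1154 on the other KO arrays, and of 3445 on WT 1 against 1226 to 1774 on the other WT arrays. Mean signals of the added spike-in controls were 759, 145, 190.3, 304 and 222 on KO 6 to KO 10, against 537, 115, 253, 422 and 334 on WT 1 to WT 5, the same rank order by title number in both groups. Xist, the RNA that coats a silenced X chromosome, was at most 30.0 on KO 6, KO 8 and WT 2 and at least 5304 on the other arrays.

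Loss of Fezf2 went with lower signal of all 4 serum amyloids, hepcidin and lipocalin 2, and with higher signal of haptoglobin. Of the 10 genes, 9 passed the filter on low signal and were tested. Of these, 6 were lower in KO cells, 1 was higher and 2, Orm1 and Crp, were not past the threshold (limma, adjusted p under 0.05 over 14087 genes). Among all genes tested, 16.2% were lower and 13% were higher, together 29.2%. The median log2 change was -0.60 over the 9 tested members and -0.03 over all genes. Every KO array lay below every WT array for 6 members, a pattern seen in 12% of all genes, and above every WT array for 1 member, against 10.1% of all genes. All log2 changes are KO minus WT on the log2(signal + 16) scale, on which dim genes show less than their full change.

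**Figure D1:**
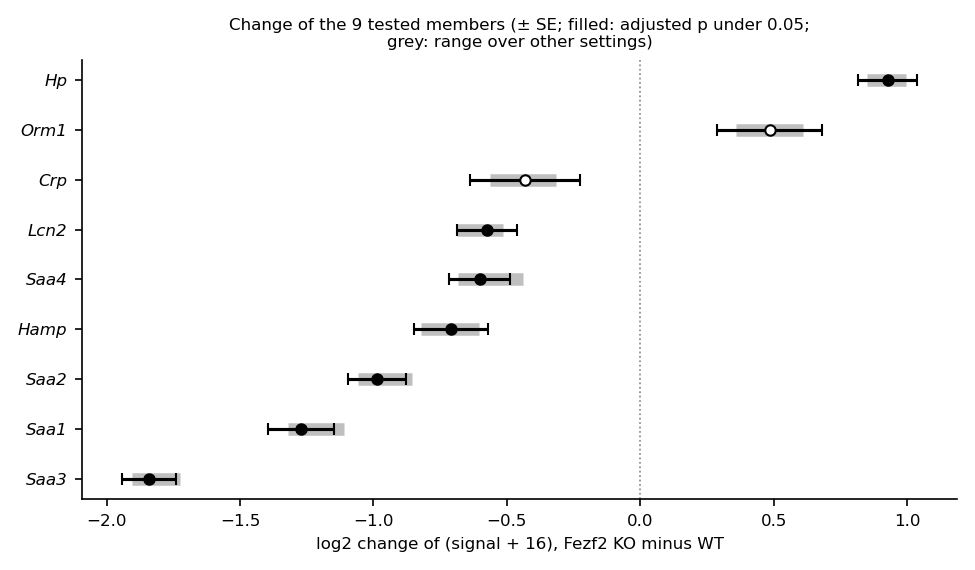
Log2 change of (signal + 16), Fezf2 KO minus WT, of the 9 tested members on the horizontal axis, with bars for the standard error and grey bands for the range over the other processing settings. Filled points passed an adjusted p of 0.05: they run from -1.84 for Saa3 to 0.93 for Hp, and the open points are Orm1 and Crp.

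Serum amyloid A proteins are small apolipoproteins of high-density lipoprotein. In mouse, Saa1 and Saa2 encode the acute-phase forms made by liver and intestine, Saa3 is made mainly outside the liver by epithelial cells, macrophages and fat, and Saa4 is expressed constitutively. The genes lie side by side on chromosome 7, in the order Saa3, Saa4, Saa1 and Saa2 in the RefSeq gene table, with the pseudogene Saa-ps between Saa4 and Saa1. Their promoters are shown because all 4 genes fell. Each window is taken from RefSeq (GRCm38.p6) and holds 250 bases before and 50 bases after the annotated start, written 5′ to 3′ on the strand of the gene. Capitals mark matches, on either strand, to a C/EBP motif (TTGCNNAA), an NF-kB motif (GGG, any 5 bases, then CC), a STAT3 motif (TTCNNNGAA), a BMP-responsive element (GGCGCC) or a TATA box (TATAAA).
Saa1, chr7:46742931-46743230, minus strand: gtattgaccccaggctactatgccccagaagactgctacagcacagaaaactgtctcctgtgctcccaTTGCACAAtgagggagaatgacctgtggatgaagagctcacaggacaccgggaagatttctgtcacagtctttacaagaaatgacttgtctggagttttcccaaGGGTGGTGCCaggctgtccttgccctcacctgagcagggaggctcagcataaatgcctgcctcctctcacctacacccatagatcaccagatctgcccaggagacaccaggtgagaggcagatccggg
Saa2, chr7:46751583-46751882, plus strand: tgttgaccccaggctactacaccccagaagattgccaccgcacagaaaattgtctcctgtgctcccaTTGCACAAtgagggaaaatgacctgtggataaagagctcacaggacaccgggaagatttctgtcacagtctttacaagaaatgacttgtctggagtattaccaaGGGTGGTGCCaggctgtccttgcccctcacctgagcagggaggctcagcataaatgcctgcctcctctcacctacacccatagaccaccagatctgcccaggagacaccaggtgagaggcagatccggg
Saa3, chr7:46715627-46715926, minus strand: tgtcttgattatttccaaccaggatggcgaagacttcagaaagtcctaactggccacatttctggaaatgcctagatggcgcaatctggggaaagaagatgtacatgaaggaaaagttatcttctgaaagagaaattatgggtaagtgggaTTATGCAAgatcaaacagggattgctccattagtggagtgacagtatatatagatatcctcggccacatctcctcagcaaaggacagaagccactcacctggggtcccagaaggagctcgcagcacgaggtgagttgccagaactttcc
Saa4, chr7:46732554-46732853, minus strand: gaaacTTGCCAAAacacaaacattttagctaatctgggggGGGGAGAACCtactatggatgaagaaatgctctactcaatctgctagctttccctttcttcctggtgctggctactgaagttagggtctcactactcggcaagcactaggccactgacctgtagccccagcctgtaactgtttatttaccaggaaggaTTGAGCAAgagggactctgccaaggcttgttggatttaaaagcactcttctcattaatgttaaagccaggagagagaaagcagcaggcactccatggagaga

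The Saa1 and Saa2 windows were nearly the same, with 287 identical positions of 301 aligned (95.3%), and lie on opposite strands. Saa3 and Saa4 were distant from both, with 50.9% identity between Saa1 and Saa3 and 46.8% between Saa1 and Saa4. A C/EBP match stood 182 bases before the start of Saa1, 183 before that of Saa2, 99 before that of Saa3, and 245 and 52 before that of Saa4. Of the 8 members with a promoter in the table, 5 held the C/EBP motif, namely the 4 Saa genes and Lcn2, against 10.8% of 32851 promoters. An NF-kB match was present in Saa1, Saa2, Saa4, Lcn2 and Crp, while 50.8% of all promoters had one. Hp and Orm1 were not in the promoter table. These matches describe letters in a window, and the motifs were chosen after the promoters had been seen.

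Saa3 had the largest change of the members. Its signal was 1278, 1417, 1823, 1548 and 1642 on KO 6 to KO 10, against 6345, 5933, 5703, 4727 and 5063 on WT 1 to WT 5. The highest KO array, KO 8, was still far below the lowest WT array, WT 4. The fitted level was 3.58-fold lower in KO cells (log2 change -1.84, SE 0.10, adjusted p = 3.22e-07).

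Saa1, the next in size, had signals of 908, 1291, 1451, 1329 and 1404 on KO 6 to KO 10, against 3394, 3603, 2824, 2679.7 and 2921 on WT 1 to WT 5. The groups did not overlap, with KO 6 the lowest of all arrays and WT 1 and WT 2 the highest. Saa1 was 2.41-fold lower in KO cells (log2 change -1.27, SE 0.12, adjusted p = 1.68e-05). A weaker probe set of Saa1 averaged 897 ± 124 in KO cells and 2184 ± 326 in WT cells, and gave the same change, -1.27, when all probe sets were fitted together.

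Saa2 had signals of 299, 362, 425, 326 and 342 on KO 6 to KO 10, against 830.3, 812, 653, 611 and 653 on WT 1 to WT 5. Again the groups were separate, and WT 1 and WT 2 stood above the other WT arrays. Saa2 was 1.98-fold lower in KO cells (log2 change -0.99, SE 0.11, adjusted p = 3.72e-05). The values of Saa1 and Saa2 are not independent of each other: the suffixes of the Saa2 probe set and of the weaker Saa1 probe set mark sequence shared between transcripts, and both cite a RefSeq transcript that the gene table assigns to Saa2. A change of 1 of these genes alone cannot be told apart from a change of both, except as far as the stronger Saa1 probe set is specific, which was not tested.

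Saa4 moved least among the serum amyloids. Its signal was 82.8, 79.0, 101, 106 and 77.4 on KO 6 to KO 10, against 123, 154, 118, 163 and 163 on WT 1 to WT 5. The groups did not overlap, although KO 9 and WT 3 were close. Saa4 was 1.52-fold lower in KO cells (log2 change -0.60, SE 0.11, adjusted p = 0.00174). The other Saa4 probe set was at or below the 40th percentile on all 10 arrays, with 14.98 ± 1.75 in KO cells and 17.5 ± 1.86 in WT cells, and was not tested.

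**Figure D2:**
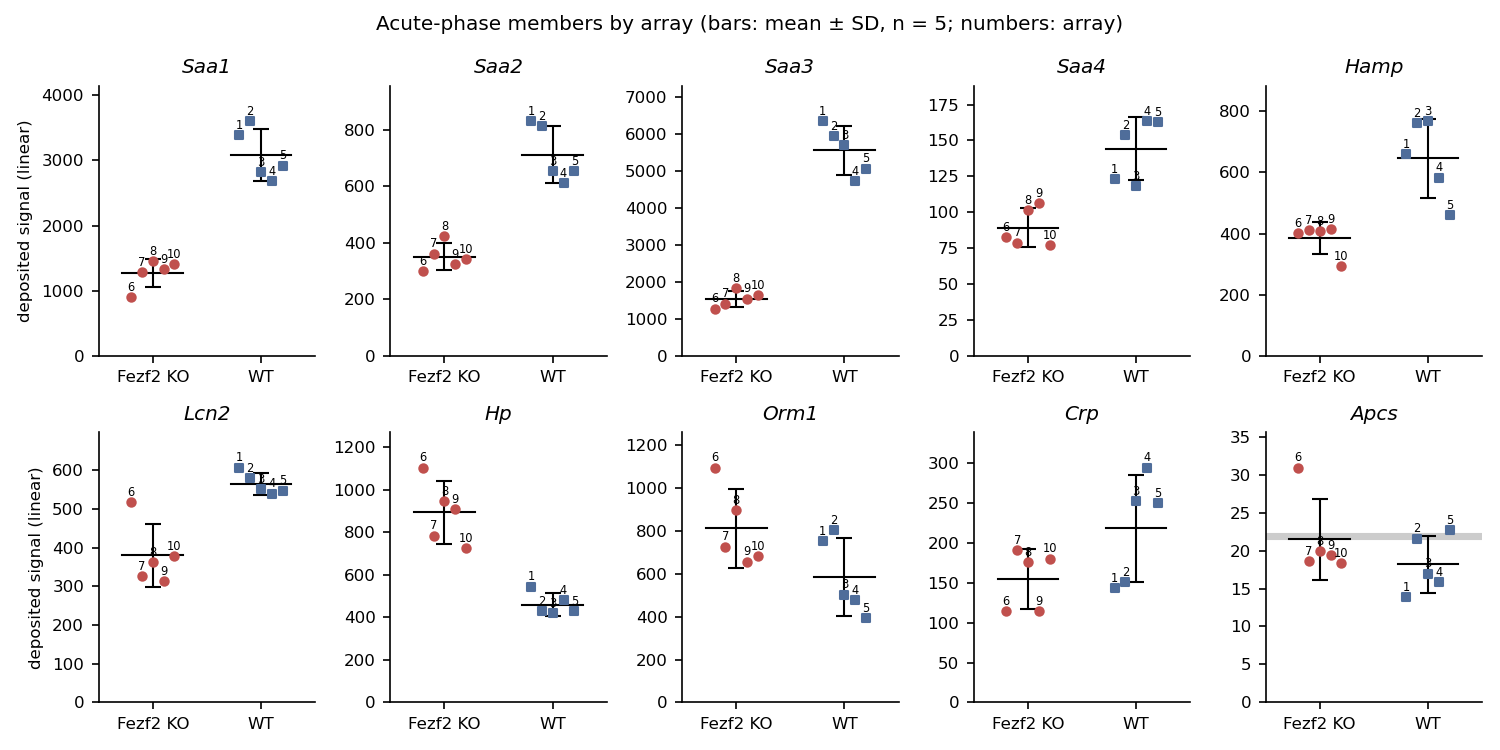
Deposited signal of each member on every array, Fezf2 KO arrays (circles) left of WT arrays (squares), with bars for the mean ± SD of 5 arrays and numbers for the array; each panel has its own linear axis from 0, and the grey band in the Apcs panel is the range of the 40th percentiles. The Saa genes, Hamp and Lcn2 lie lower and Hp higher in KO cells without overlap, while Orm1, Crp and Apcs overlap.

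Part of the genes that neighbour the Saa cluster were lower as well. Of the 4 nearest genes with a probe set on each side, 5 of 8 were lower in KO cells and none was higher. The shares over all genes were 16.2% lower and 13% higher. Tph1, the tryptophan hydroxylase of enteroendocrine cells, had a log2 change of -0.76 (SE 0.08, adjusted p = 1.78e-05), with 194.7 in KO cells and 343 in WT cells as group means. Saal1, Ldha and Ldhc, the lactate dehydrogenase genes among them, had changes of -0.34, -0.35 and -0.33, and Hps5, the direct neighbour of Saa2, one of -0.21 whose call was lost in 7 of the 10 leave-one-array-out fits. Gtf2h1, a subunit of a general transcription factor, had a change of 0.04, Kcnc1 one of 0.02 and Sergef one of -0.19, and none of these passed.

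Hepcidin is a peptide hormone that binds the iron exporter ferroportin and causes its removal from the cell surface. In liver it is induced by BMP signals of iron stores and by IL-6 through STAT3. Its promoter (RefSeq, GRCm38.p6) is shown because it holds a match to both kinds of element, a BMP-responsive element 109 bases and a STAT3 motif 97 bases before the start, which were present in 11.9% and 8.3% of all promoters.
Hamp, chr7:30943980-30944279, minus strand: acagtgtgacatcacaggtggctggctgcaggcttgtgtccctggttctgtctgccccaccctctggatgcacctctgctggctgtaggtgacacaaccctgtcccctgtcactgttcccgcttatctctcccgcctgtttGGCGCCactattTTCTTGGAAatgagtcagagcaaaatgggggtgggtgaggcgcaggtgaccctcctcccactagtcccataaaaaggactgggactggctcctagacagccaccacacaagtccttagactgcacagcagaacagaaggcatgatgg

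Hamp had signals of 401, 411, 407, 414 and 293 on KO 6 to KO 10, against 660.1, 761, 768, 583 and 459.9 on WT 1 to WT 5. The KO arrays other than KO 10 were tightly grouped, and the lowest WT array, WT 5, lay just above the highest of them. Hamp was 1.64-fold lower in KO cells (log2 change -0.71, SE 0.14, adjusted p = 0.00234). Its other probe set, which lacks the suffix of shared sequence, averaged 361 ± 38.5 in KO cells and 627 ± 124 in WT cells, with a change of -0.75 (adjusted p = 0.0012 in the fit of all probe sets). The paralogue Hamp2, whose promoter was 91.1% identical to that of Hamp, ranged from 456 to 568 on KO arrays and from 79.6 on WT 3 to 633 on WT 2, and its change of 0.55 did not pass (adjusted p = 0.35). The suffix of the Hamp2 probe set marks sequence shared between transcripts, so its signal may not be that of Hamp2 alone.

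Of 22 listed genes of hepcidin regulation and iron handling 20 were tested, of which 4 were lower, 2 were higher and 14 did not pass, with a median log2 change of -0.05. These counts are near the shares over all genes (16.2% lower and 13% higher) and are not a result about the list. Slc40a1, which encodes ferroportin, the target of hepcidin, was 163 ± 41.1 in KO cells and 265 ± 30.8 in WT cells (a log2 change of -0.67 with SE 0.14, adjusted p = 0.0036). Hfe, a regulator of hepcidin, had a change of -0.25 (adjusted p = 0.016), and the inhibitory Smads of BMP signalling, Smad6 and Smad7, rose with changes of 0.44 and 0.33 (adjusted p = 0.0018 and 0.0024). Tfrc, the transferrin receptor, and Smad1 were the other genes that fell, and their calls were lost in 7 and 5 of the 10 leave-one-array-out fits. The number of lower genes was 2 without WT 3, WT 4 or KO 9. Id1 and Bmp6, a target and a ligand of the BMP pathway, had changes of 0.33 and 0.25 without passing the threshold (adjusted p = 0.10 and 0.16).

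Lipocalin 2 binds bacterial iron carriers and is made by neutrophils and by epithelia. Lcn2 had signals of 517, 327, 363, 314 and 377 on KO 6 to KO 10, against 606, 579, 551, 539 and 548 on WT 1 to WT 5. The WT arrays were tightly grouped, and KO 6 stood above the other KO arrays and just under the lowest WT array. Lcn2 was 1.49-fold lower in KO cells (log2 change -0.57, SE 0.11, adjusted p = 0.00229), and the change was -0.69 without KO 6. Among 11 tested lipocalins and pentraxins outside the 10 genes, 4 were lower, none was higher and 7 did not pass, with a median of -0.23. The shares over all genes were 16.2% lower and 13% higher. Obp1a, an odorant-binding lipocalin, was 17.7 ± 2.54 in KO cells and 40.8 ± 6.41 in WT cells. It was below the floor on every KO array (at most 21.03) and passed the filter on low signal through the WT arrays alone. Lcn8 and Lcn3 had changes of -0.58 and -0.69, and the pentraxin Ptx3 had one of -0.48 whose call was lost in 7 of the 10 leave-one-array-out fits.

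Haptoglobin, which binds free haemoglobin and is likewise stored in neutrophils as well as secreted by liver, moved the other way. Hp had signals of 1102, 784, 947, 907 and 726 on KO 6 to KO 10, against 544, 429.7, 418, 479.6 and 427 on WT 1 to WT 5. Every KO array was above every WT array, and KO 6 and WT 1 were the highest of their groups. Hp was 1.90-fold higher in KO cells (log2 change 0.93, SE 0.11, adjusted p = 7.29e-05). Without WT 1 and KO 6 the change was 0.91.

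Hp and Lcn2 are both products of neutrophil granules, so markers of these cells were set beside them. Of 13 neutrophil markers 11 had a probe set and 7 were tested, with 2 higher, 1 lower and 4 not past the threshold. Over all genes 13% were higher and 16.2% lower, so counts of this size in so few genes are not a result about the list. Ltf, the lactoferrin gene, was 2442 ± 896 in KO cells and 886 ± 304 in WT cells (a log2 change of 1.44 with SE 0.23, adjusted p = 0.00056), with KO 6 and WT 1 again the highest of their groups. S100a8 was 7062 ± 521 in KO cells and 4859 ± 1159 in WT cells, and Camp was 289 ± 90.3 in KO cells and 498 ± 124 in WT cells, a call that was lost without WT 2. Ltf and S100a8 are also made by epithelial cells. The neutrophil elastase gene Elane and the chemokine receptor gene Cxcr2 were at or below the 40th percentile on all 10 arrays, and the granule gene Ngp had a change of -0.20 (adjusted p = 0.20). The summed signal of the neutrophil list ran from 12289 to 15977 on KO arrays and from 8469.8 to 12983 on WT arrays. S100a8, its partner S100a9 (3379 in KO cells and 2653 in WT cells as group means) and Ltf made up most of that sum. It therefore does not speak for the other markers. Without WT 1 and KO 6, S100a9 passed as well. The part of neutrophil RNA in the signals of Hp and Lcn2 was not tested.

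Orosomucoid 1 is a lipocalin that carries drugs and other small molecules in plasma. Orm1 had signals of 1095, 727, 895, 657 and 683 on KO 6 to KO 10, against 751, 804, 503, 479 and 393 on WT 1 to WT 5. WT 1 and WT 2 lay among the KO arrays, and WT 3, WT 4 and WT 5 below all of them. The change of 0.48 (SE 0.20) did not pass (adjusted p = 0.0846). Leaving out WT 1 or WT 2 moved it past the threshold, with changes of 0.58 and 0.61 (adjusted p = 0.045 and 0.034). Its paralogue Orm2 was 68.5 ± 8.99 in KO cells and 65.6 ± 7.34 in WT cells, and Orm3 was at or below the 40th percentile on all 10 arrays.

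The pentraxins C-reactive protein and serum amyloid P component bind phosphocholine and other ligands on microbes and dead cells. In mouse, Apcs is the acute-phase pentraxin and Crp changes little. Crp had signals of 114, 191, 176, 115 and 180.1 on KO 6 to KO 10, against 144, 150.4, 253, 294 and 249.99 on WT 1 to WT 5. Here WT 1 and WT 2 were the low WT arrays and lay among the KO arrays, and the change of -0.43 (SE 0.21) did not pass (adjusted p = 0.141). Apcs was not tested, because its signal exceeded the 40th percentile of its array on only 2 of the 10 arrays. It was 30.9, 18.7, 19.97, 19.4 and 18.4 on KO 6 to KO 10, against 13.8, 21.6, 17.0, 15.9 and 22.7 on WT 1 to WT 5, so that KO 6 and WT 5 were the arrays above the floor. Of the genes next to Crp and Apcs on chromosome 1, Fcer1a, a subunit of the IgE receptor, was 31.1 in KO cells and 68.9 in WT cells as group means (log2 change -0.86, SE 0.15, adjusted p = 0.00096). Slamf8 and Ackr1 had changes of -0.33 and -0.29 (adjusted p = 0.036 and 0.040), close to the threshold. Vsig8 and Cfap45 had changes of 0.41 and 0.43 (adjusted p = 0.020 and 0.0097), and Cadm3 one of -0.18 that did not pass. The calls of these genes were not followed in the leave-one-array-out fits. Over all genes 16.2% were lower and 13% higher. The neighbours Dusp23 and Olfr16 did not pass the filter on low signal and were not tested.

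**Figure D3:**
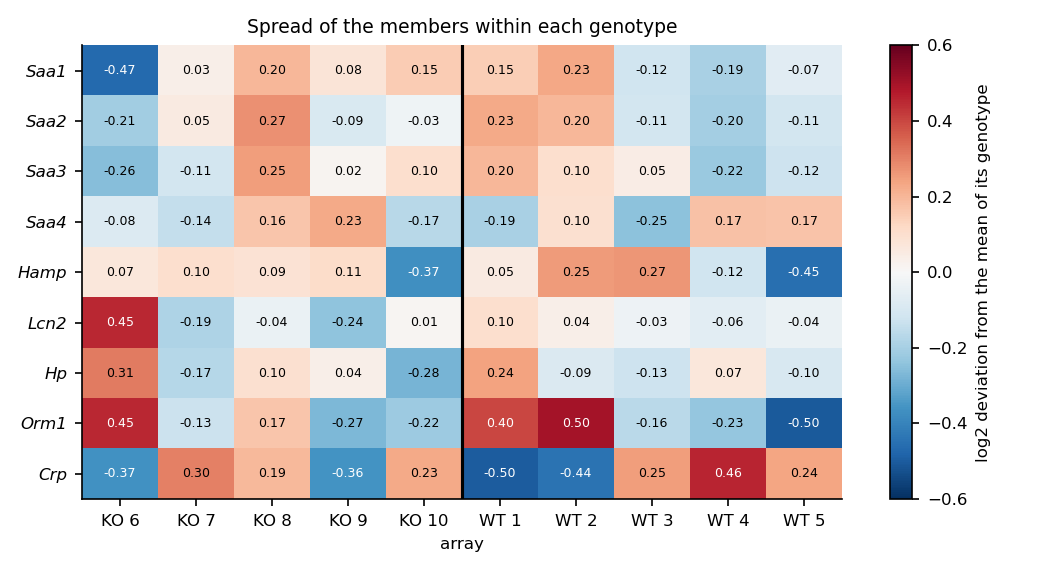
Deviation of each tested member on each array from the mean of its own genotype, on the log2(signal + 16) scale, with KO arrays left of the line and WT arrays right of it; red is above and blue below the genotype mean. KO 6 was low in Saa1 (-0.47) and high in Lcn2 and Orm1 (0.45 each), and WT 1 and WT 2 were high in Orm1 and low in Crp.

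Within a genotype the members did not vary alike. KO 6 deviated from the KO mean by -0.47 in Saa1 and by -0.26 in Saa3, on the log2 scale, but by 0.45 in both Lcn2 and Orm1 and by 0.31 in Hp. WT 1 and WT 2 deviated from the WT mean by 0.15 and 0.23 in Saa1, by 0.23 and 0.20 in Saa2 and by 0.40 and 0.50 in Orm1, and by -0.50 and -0.44 in Crp. Hamp was set apart by KO 10 and WT 5, with deviations of -0.37 and -0.45. The part of RNA quality and of Xist status in these deviations was not tested. Without WT 1 and KO 6 the changes of Saa1, Saa2, Saa3, Saa4, Hamp and Lcn2 were -1.12, -0.88, -1.73, -0.63, -0.71 and -0.66, all past the threshold, as they were with the presence of Xist signal as a block. With the spike-in level of each array as a covariate, chosen after the data were seen, they were -1.29, -1.002, -1.85, -0.60, -0.72 and -0.56, and that of Hp was 0.95, all past the threshold.

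Further acute-phase proteins of the liver were also lower in KO cells or did not pass. Of 25 positive acute-phase genes outside the 10, 21 were tested, of which 12 were lower, none was higher and 9 did not pass, with a median log2 change of -0.33. The lower genes include Pzp, which was below the floor on every KO array (16.6 to 20.8) and 22.9 to 27.8 on WT arrays. Pzp passed the filter on low signal through the WT arrays alone. The shares over all genes were 16.2% lower and 13% higher. The 3 chains of fibrinogen, the clotting protein, fell together: Fgg was 352 ± 78.3 in KO cells and 626 ± 65.6 in WT cells, Fgb was 116 ± 42.8 in KO cells and 268 ± 26.5 in WT cells, and Fga was 25.4 ± 6.76 in KO cells and 64.7 ± 14.4 in WT cells (adjusted p = 0.00058, 0.00029 and 0.00022). Fga was near the floor on KO arrays, with 19.3 to 24.4 on all but KO 8. Serpina1b, an alpha-1-antitrypsin gene with near-identical copies, was 62.2 ± 21.5 in KO cells and 140.02 ± 17.0 in WT cells. Hpx, the haem carrier hemopexin, and Itih4 had changes of -0.66 and -0.64. The metallothionein genes Mt1 and Mt2, which are induced in liver by IL-6 and stress, had changes of 0.11 and -0.05 without passing the threshold (adjusted p = 0.65 and 0.74), nor did Il1rn (0.16) or Serpina3n (0.22). Cd14 lost its call in 7 of the 10 leave-one-array-out fits.

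Among plasma proteins whose production falls during the acute phase, or is not part of it, more genes were lower than higher. Of 17 such genes 14 were tested, of which 7 were lower, 2 were higher and 5 did not pass, with a median of -0.42. The shares over all genes were 16.2% lower and 13% higher. Ttr, the carrier of thyroxine and retinol-binding protein, had the largest change of the list, with 210.5 ± 26.1 in KO cells and 1204 ± 214 in WT cells (a log2 change of -2.42, adjusted p = 9.2e-08). Alb, the albumin gene, was 181 ± 22.2 in KO cells and 281 ± 44.9 in WT cells (a log2 change of -0.59, adjusted p = 0.0016), and Apoa1 was 629 ± 85.3 in KO cells and 1304 ± 165 in WT cells. Apoa2, another apolipoprotein of high-density lipoprotein, had a change of -0.55. Apoh, Ambp and F2, the prothrombin gene, had changes of -0.86, -0.71 and -0.64. Ahsg, the fetuin-A gene, had a change of 0.29, and the largest rise of the list was that of its relative Fetub, with a change of 2.27 (adjusted p = 1.9e-08). Lower signal was found both among genes that rise and among genes that fall in the liver's acute-phase response.

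**Figure D4:**
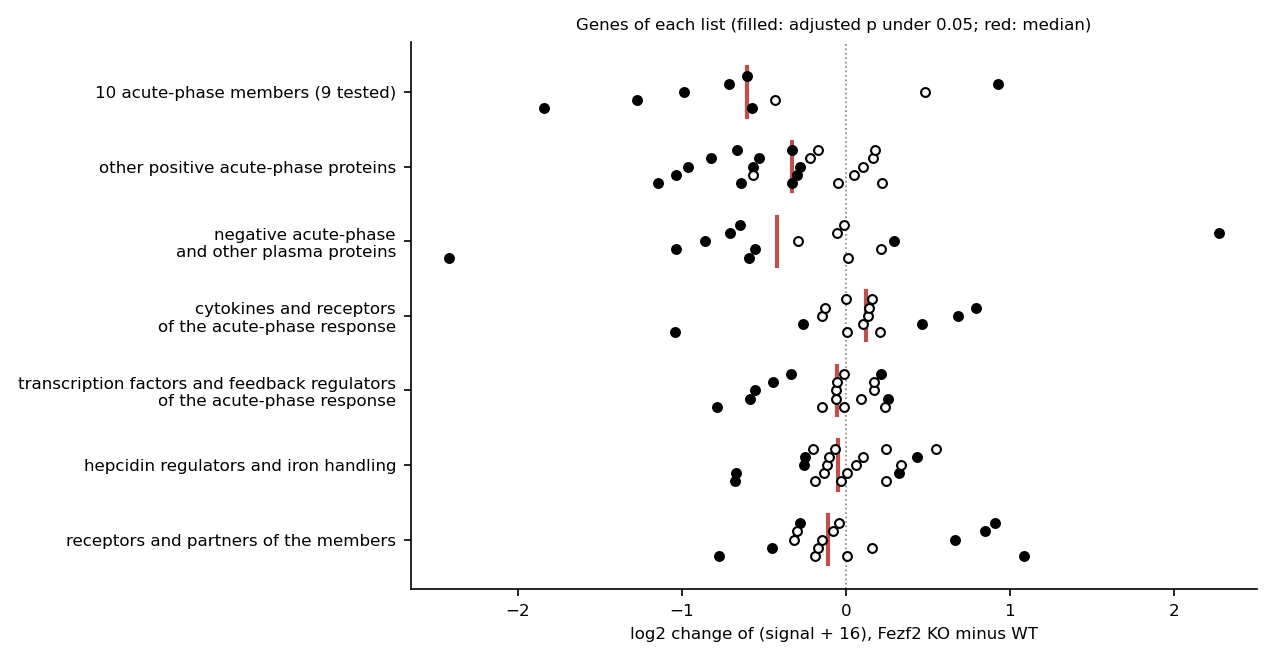
Log2 change of (signal + 16), Fezf2 KO minus WT, for each tested gene of the 10 members and of 6 companion lists, 1 point a gene, filled where the adjusted p was under 0.05, with a red line at the median of each list. The medians run from -0.60 for the members and -0.42 for negative acute-phase and other plasma proteins to 0.12 for cytokines and receptors.

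Of 17 cytokines and receptors of the response 14 were tested, of which 2 were lower, 3 were higher and 9 did not pass, with a median of 0.12. These counts are near the shares over all genes (16.2% lower and 13% higher) and are not a result about the list. Tnf, an inducer of acute-phase genes, was 118 ± 17.6 in KO cells and 258 ± 27.5 in WT cells (a log2 change of -1.04 with SE 0.10, adjusted p = 1.4e-05). Il6 ranged from 75.8 to 289 on KO arrays and from 70.8 to 568 on WT arrays, and neither it nor Il1b passed (adjusted p = 0.89 and 0.45). The shared receptor subunit Il6st, or gp130, was 434 ± 50.3 in KO cells and 267 ± 49.2 in WT cells (a log2 change of 0.68 with SE 0.12, adjusted p = 0.0011), and Osmr, the oncostatin M receptor, rose with a change of 0.46 (adjusted p = 0.0079). Lifr, the LIF receptor, rose by 0.80 (adjusted p = 0.038), and Il1rap, a subunit of the IL-1 receptor, fell by 0.26 on the log2 scale. Those calls were lost in 6 and 8 of the 10 leave-one-array-out fits.

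Of 21 transcription factors and feedback regulators 17 were tested, of which 5 were lower, 2 were higher and 10 did not pass, with a median of -0.05. Over all genes 16.2% were lower and 13% higher, so counts of this size in so few genes are not a result about the list. Hnf4a, a factor of hepatocytes and enterocytes, was 67.6 ± 14.4 in KO cells and 127 ± 18.5 in WT cells (a log2 change of -0.78 with SE 0.13, adjusted p = 0.00076). Creb3l3, a liver and gut factor known to activate hepcidin and acute-phase genes, had a change of -0.56, and Foxa1 one of -0.44 (adjusted p = 0.00033 and 0.00031). Hnf4g, a relative of Hnf4a, had a change of -0.33 (adjusted p = 0.0036). Cebpb, encoding the C/EBP-beta factor of the acute-phase response, was 890.5 ± 290 in KO cells and 1319 ± 286 in WT cells, with overlapping groups and a call (adjusted p = 0.03) that was lost in 6 of the 10 leave-one-array-out fits. Cebpa, Cebpd and Stat3 had changes of -0.05, -0.15 and -0.06 without passing the threshold (adjusted p = 0.60, 0.52 and 0.59). Socs3, a feedback inhibitor induced by STAT3, was 2485 ± 121 in KO cells and 2081 ± 200.1 in WT cells (a log2 change of 0.26, adjusted p = 0.016). The call of Jak1 was lost in 8 of the 10 leave-one-array-out fits.

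Of 17 receptors and partners of the 10 proteins 16 were tested, of which 3 were lower, 4 were higher and 9 did not pass, with a median of -0.11. Over all genes 16.2% were lower and 13% higher, so counts of this size in so few genes are not a result about the list. Tlr2 and Fpr2, which respond to serum amyloid A, had changes of -0.77 and -0.28 (adjusted p = 4.6e-05 and 0.0023). Fpr2 was 16.6 to 21.2 on KO arrays, below the floor on each, and 23.6 to 28.7 on WT arrays. It passed the filter on low signal through the WT arrays alone. Scarb1, a lipoprotein receptor that also takes up serum amyloid A, was 306 ± 50.6 in KO cells and 165 ± 38.02 in WT cells, and Tlr4 was 111 ± 27.7 in KO cells and 50.5 ± 5.44 in WT cells. Fcgr3, an Fc receptor that pentraxins can bind, was 201 ± 19.0 in KO cells and 86.5 ± 12.1 in WT cells. Cd163, the receptor of haptoglobin and haemoglobin complexes, had a change of -0.45 whose call was lost in 7 of the 10 leave-one-array-out fits.

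Genes of mucosal defence, with which Lcn2 and the serum amyloids are often listed, were divided. Of 20 genes 18 were tested, of which 7 were lower, 4 were higher and 7 did not pass, with a median of -0.08. The shares over all genes were 16.2% lower and 13% higher. Lyz1, the Paneth cell lysozyme, was 7711 ± 654 in KO cells and 10585 ± 451 in WT cells, Muc1, a membrane mucin, was 422 ± 44.8 in KO cells and 891 ± 120 in WT cells, and Dmbt1 had a change of -0.59. The suffix of the Lyz1 probe set marks sequence shared between transcripts, so its signal may not be that of Lyz1 alone. Ltf was among the higher genes. Bpifa1 was another, and its call was lost in 7 of the 10 leave-one-array-out fits.

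The members are made in other organs by hepatocytes, enterocytes, macrophages and fat cells, so markers of those cells were measured on the same arrays. Their counts stand beside shares over all genes of 16.2% lower and 13% higher. Of 15 hepatocyte markers 12 were tested, of which 7 were lower and 1 was higher (median -0.64), and their summed signal was 1479 to 1954 on KO arrays and 3415 to 4414 on WT arrays, without overlap. Ttr and Apoa1 made up most of that sum in WT cells, with group means of 1204 and 1304. Besides Ttr and Apoa1, the smallest adjusted p-values were those of Cyp3a11, a drug-metabolising enzyme, and G6pc, the glucose-6-phosphatase, with changes of -1.17 and -1.0002. Asgr1, an asialoglycoprotein receptor of hepatocytes, was at or below the 40th percentile on all 10 arrays. Of 18 enterocyte markers 16 were tested, of which 11 were lower and 1 was higher (median -0.91), with a summed signal of 3588 to 4212 on KO arrays and 5809 to 8602 on WT arrays. These figures include Pmel, a pigment cell gene to which the listed symbol Si was matched, and which is no enterocyte marker. Its change of 0.04 did not pass. The fatty acid carrier Fabp2, the apolipoprotein Apoa4 and the brush border protein Vil1 had changes of -1.64, -1.47 and -1.43, and the peptidase Anpep one of 1.42. Of 14 macrophage and dendritic cell markers 12 were tested, of which 7 were lower and 2 were higher (median -0.31), with a sum of 4557 to 5697 on KO arrays and 6149 to 6631 on WT arrays. Lyz2 alone made up most of that sum, with 3187 ± 326 in KO cells and 4291 ± 190.3 in WT cells. The sum therefore does not speak for the other markers. Csf1r and Lyz2, of macrophages, had changes of -0.52 and -0.43, the dendritic cell receptor Flt3 one of -0.56, Mpeg1, a perforin-like gene of macrophages, had the largest rise of that list (2.62), and Cx3cr1 was at or below the 40th percentile on all 10 arrays. Of 12 fibroblast and fat cell markers 9 were tested, of which 2 were higher and none lower (median 0.10), with a sum of 10463 to 12755 on KO arrays and 10008 to 12346 on WT arrays. Fabp4 alone made up most of that sum, with 8200 in KO cells and 8128 in WT cells as group means. The higher genes were the matrix proteoglycans Lum and Dcn, with changes of 0.86 and 0.30, and the call of Dcn was lost without WT 2, WT 3 or WT 4. Alb, Apoa1, Ttr and Ahsg stand in the hepatocyte list and in that of plasma proteins, so those counts share genes. The sums are RNA signals of sorted mTECs, which themselves express genes of peripheral organs, and are not counts of hepatocytes or enterocytes. Any part of other cell types in the changes of the members was not tested.

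**Figure D5:**
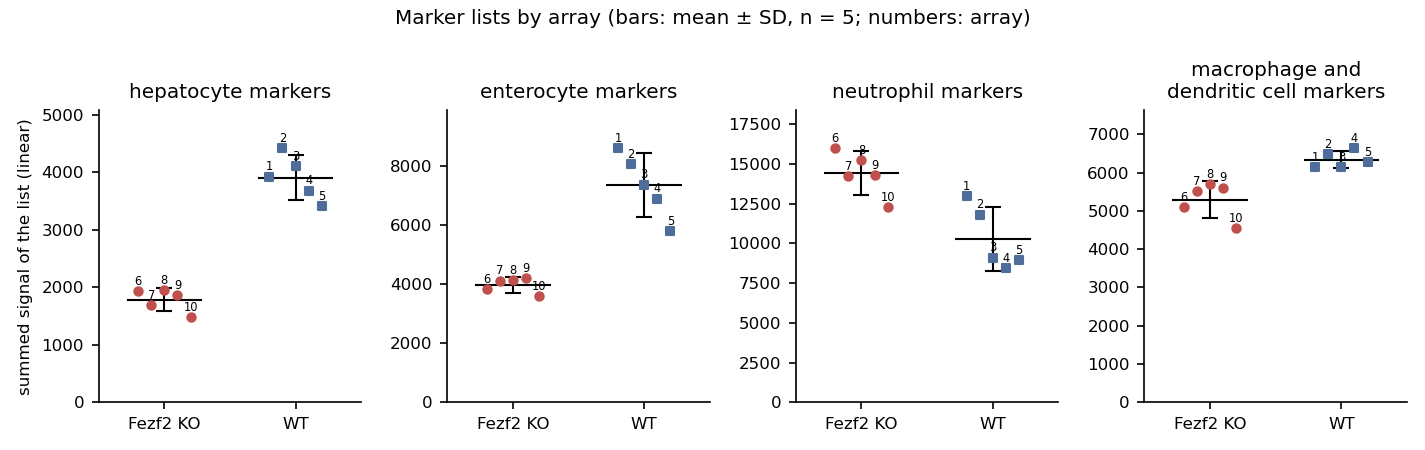
Summed signal of the marker lists of hepatocytes, enterocytes, neutrophils, and macrophages and dendritic cells on every array, Fezf2 KO arrays (circles) left of WT arrays (squares), with bars for the mean ± SD of 5 arrays. The hepatocyte, enterocyte and macrophage sums are lower in KO arrays without overlap, and the neutrophil sums overlap. Lyz2 alone makes up most of the macrophage and dendritic cell sum, and S100a8, S100a9 and Ltf most of the neutrophil sum.

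Thymocyte, B cell, endothelial, erythroid and mTEC markers were measured in the same way, beside the same shares over all genes (16.2% lower and 13% higher). Of 10 thymocyte and B cell markers 7 were tested, of which 1, Ms4a1, was higher (median -0.05), with a sum of 520.3 to 1163 on KO arrays and 884 to 1047 on WT arrays. Of 9 endothelial and erythroid markers 5 were tested, of which 4 were higher (median 0.62), with a sum of 299 to 403 on KO arrays and 194 to 328 on WT arrays. Pecam1, Emcn, Kdr and Cdh5, all of endothelium, had changes of 0.62, 0.60, 0.75 and 0.79, with overlapping groups. Pecam1 was below the floor on all WT arrays but WT 1 (15.8 to 20.9, and 38.1 on WT 1), and 37.8 to 48.2 on KO arrays. Emcn was 12.7 to 28.5 on WT arrays and 25.2 to 40.3 on KO arrays. Neither would have passed the filter on low signal without its KO arrays. Of 18 markers of mature mTECs 16 were tested, of which 4 were lower and 4 higher (median 0.02), and of 10 markers of microfold-like mTECs 3 were higher and none lower (median 0.10). In mature mTEC markers Tnfrsf11a, the RANK receptor, and the claudin Cldn3 had changes of 0.76 and 0.65, and the death receptor Fas and Ciita, the regulator of MHC class II, had changes of -1.04 and -0.81. The higher microfold-like markers were the chemokines Ccl6 and Ccl9 and the peptidoglycan-binding Pglyrp1, with changes of 1.33, 0.59 and 0.55. Aire was 6504 ± 1199 in KO cells and 8791 ± 1156 in WT cells, with overlapping groups (log2 change -0.45, adjusted p = 0.028). Krt14 had a change of -0.42 (adjusted p = 0.044), also with overlapping groups. The number of lower mature mTEC markers was 2 without WT 3, WT 4 or WT 5, since Aire and Krt14 each lost their call there.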

How the data were processed

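The authors deposited linear signal intensity per probe set for 10 Affymetrix arrays. The submitters' processing notes name MAS5 alone and give it no version; the sources used here give neither its scaling and background settings nor any filter. The table held 45101 probe sets, of which 34958 had 1 gene symbol in the platform annotation, 932 several and 9211 none; 34754 were matched by gene identifier to a RefSeq table of GRCm38.p6, used for names and gene order. Probe sets above the 40th percentile of their array on at least 5 arrays were kept (4 where an array was left out), and each gene was represented by its kept probe set of highest mean, leaving 14087 genes. A gene at the floor in 1 genotype could therefore be kept through the 5 arrays of the other. After log2(signal + 16), genes were tested in R 4.3.3 with limma 3.58.1 (eBayes with trend and robust estimation), without further normalization, with Benjamini-Hochberg adjustment over all genes and a threshold of 0.05. The procedure was tested on simulated data. The number of arrays limits the precision, and no array duplicated another (highest correlation 0.997).

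The members and the 17 companion lists, with 260 genes of which 211 were tested, were chosen with earlier results of these data known. The text names the 10 genes with all their probe sets, Fezf2, from each list the called genes ranked by adjusted p, at most 4, and the 4 neighbours on each side of the Saa, Crp and Apcs loci. Other list genes are named to complete a description and were chosen after their values were seen. Motifs were searched in RefSeq promoter windows of 300 bases on both strands. The alternatives were other offsets, normalizations, filters, probe set rules, variance models, array weights, a threshold of 0.01, a block for WT 1 and KO 6, the fit lacking both, and each array left out in turn. A block for Xist signal above 1000 and a covariate for the spike-in level were added after the data were seen.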

Additional observations from a re-analysis of the deposited data

Results flagged for a closer look

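Within each genotype, an array was looked at again when its gap to the nearest other array took more than 0.71 of the group's whole range, the 95% critical value of Dixon's test for 5 values. The rule was applied to all member probe sets, to Fezf2 and to the genes taken from each list by adjusted p. Other genes named above, such as Il6, Hamp2 and the neighbours, were not screened. Of the 144 groups screened, 15 (10.4%) passed, where chance alone gives about 1 in 20.

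Among the members, KO 6 was high in Apcs, with 30.9 against 18.4 to 19.97 on the other KO arrays (ratio 0.873), and KO 10 was low in Hamp, with 293 against 401 to 414 (0.892) and, in the other Hamp probe set, 294 against 370.1 to 391 (0.784). KO 6 was also high in Ltf, with 4001 against 1829.7 to 2359 (0.756), in Dcn with 1590 against 1133 to 1238 (0.770), and in Muc1 with 499.9 against 387 to 412 (0.776), and low in Hnf4g, with 38.5 against 43.4 to 45.0 (0.764). KO 8 was high in Fga, with 36.9 against 19.3 to 24.4 (0.714), in Fgb with 190.4 against 79.8 to 109.8 (0.728), and in Scarb1 with 395 against 271 to 288 (0.868). KO 10 was low in Dmbt1, with 155 against 182 to 190.3 (0.754), and in Lyz2, with 2622 against 3221 to 3420 (0.751). WT 1 was high in Ltf, with 1420 against 658 to 802 (0.811), and in Pecam1, with 38.1 against 15.8 to 20.9 (0.771), and WT 5 was low in Cldn3, with 998 against 1174 to 1239 (0.730).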

How the results depend on the processing

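No result reversed under any of the 25 alternatives. The calls of Saa1, Saa4, Hamp and Hp held in all 25, and those of Saa2, Saa3 and Lcn2 in the 24 where they had a probe set. The range of the log2 change was -1.32 to -1.11 for Saa1, -1.06 to -0.86 for Saa2, -1.90 to -1.73 for Saa3, -0.68 to -0.44 for Saa4, -0.82 to -0.61 for Hamp, -0.69 to -0.51 for Lcn2 and 0.85 to 1.00 for Hp. With only probe sets free of the suffixes of shared sequence, 3 members were lower, because Saa2, Saa3 and Lcn2 have no such probe set. Among the companion genes, the probe sets of Hamp2, Ttr, Apoa1, Apoa4 and Scarb1 also carry such a suffix. The number of higher members was 2 both with array weights and with a block for the WT 1 and KO 6 arrays, Orm1 joining Hp, and ran from 1 to 2 when each array was left out. Crp passed with array weights (log2 change -0.56, adjusted p = 0.0245) and in no other alternative. At a threshold of 0.01, 2473 genes were called in place of 4119. The number was 5563 with array weights and 5098 with the WT 1 and KO 6 block, and when each array was left out it ran from 3454 to 4220. The adjusted p of Orm1 ran from 0.0096 to 0.189 and that of Crp from 0.0245 to 0.298. In the fit of every probe set, with no filter, Apcs had a log2 change of 0.13 (adjusted p = 0.41). No paired analysis was possible because the labels give the genotypes no shared replicate number. The spike-in signals had the same rank order by title number in both genotypes, and a pairing by that order was not fitted. With the spike-in level as a covariate, added after the data were seen, 4414 genes were called and no call of a member changed.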
